A study of Mus musculus with 4 samples.

Results

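Medullary thymic epithelial cells (mTECs) transcribe genes of other tissues, and 9 such genes whose products are targets of autoimmunity in pigment cells, eye and nervous system were read out here in mTECs of female and male mice. They are Tyr, Tyrp1, Dct and Pmel of the melanocyte, Rbp3 and Sag of the retina, Mog and Mbp of myelin, and Gad1 of inhibitory neurons, chosen by name from the 23366 gene rows of the count table. All mice were wild-type C57BL/6 aged 6 to 8 weeks, and the labels name no treatment. Cells were sorted as negative for propidium iodide and CD45, positive for MHCII and low for Ly51, and each of the 2 female and 2 male libraries held RNA from a pool of 10 mice. A pool averages its mice, so n = 2 pools per sex is the number of replicates throughout, and in RNA from sorted bulk cells a smaller number of expressing cells and less RNA per cell cannot be told apart.

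The thymic medulla is where the T cell repertoire is tested against the body's own proteins: a strong response to a peptide shown there ends in death of the cell or in a regulatory fate. The transcription regulator Aire opens many of these tissue-specific antigens (TSAs) to transcription in mTECs, typically in a small fraction of the cells at any time, whereas other TSAs are transcribed without it. Loss of tolerance to the products of these 9 genes is known from vitiligo (the melanosomal proteins), uveitis (the retinal proteins), experimental autoimmune encephalitis (the myelin proteins) and disorders with antibodies to glutamate decarboxylase (Gad1 and its relative Gad2).

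The genes are placed on NCBIM37, the assembly also called mm9, and their exons are nearly free of other genes. Tyr spans chromosome 7 from 94574910 to 94641943 on the minus strand, Tyrp1 chromosome 4 from 80480027 to 80497623 on the plus strand, Dct chromosome 14 from 118412014 to 118451468 on the minus strand and Pmel chromosome 10 from 128143314 to 128157294 on the plus strand. Rbp3 spans chromosome 14 from 34767208 to 34777402 and Sag chromosome 1 from 89700255 to 89741733, both on the plus strand. Mog spans chromosome 17 from 37147691 to 37160343 on the minus strand and Gad1 chromosome 2 from 70391129 to 70440071 on the plus strand. Pmel alone shared exon bases with another gene model, 98 bases (4.59% of its exons) with Dgka on the opposite strand.

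The 3 enzymes of the tyrosinase family, Tyr, Tyrp1 and Dct, act in the melanosome to make melanin. They are switched on together in melanocytes through the M-box, a DNA element bound by the melanocyte factor MITF. The stretch around the M-box core TCATGTG is shown for these 3 genes because they share it and yet had very different read counts in mTECs, as given below. Sequences are those of the RefSeq promoter table, which covers 250 bases before and 50 bases after a gene's start in GRCm38.p6, and their positions were found by an exact match to NCBIM37. Each is written 5′ to 3′ in the direction of the gene with the core in capitals, from chr7:94642026-94642055 (minus strand) for Tyr, chr4:80480059-80480088 (plus strand) for Tyrp1 and chr14:118451601-118451630 (minus strand) for Dct.
Tyr: gaaaaagttagTCATGTGctttgcagaaga
Tyrp1: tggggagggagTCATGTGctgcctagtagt
Dct: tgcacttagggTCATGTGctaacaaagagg
The core began 22, 47 and 151 bases before the RefSeq start of Tyr, Tyrp1 and Dct. The Tyr and Dct stretches lay before the start of the GENCODE vM1 gene model, and the Tyrp1 stretch lay in an exon of it. Of the 7 members in the promoter table, Rbp3 also held the core on the gene's strand, 89 bases before its start, Dct held a second copy on the opposite strand, and Sag, Mog and Gad1 held none in this window. Over all 32851 promoters of the table, 1239 (3.77%) held the core on either strand. These matches describe letters and not bound sites.

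The 9 genes fell into 3 levels (the plot of normalized CPM by pool). Tyr and Mbp together took 95.1% of the 1739 reads that the 9 genes received over the 4 pools, Pmel, Sag and Gad1 took the rest, and Tyrp1, Dct, Rbp3 and Mog had 0 reads in every pool. Levels are given as normalized CPM, the reads per 1000000 reads on the genes that passed the filter on low counts, after scaling by edgeR's TMM factors, and a count of 0 is taken to allow 3 reads. Reads counted on genes numbered 3508921 and 1976272 for female pools 1 and 2 and 7103627 and 3344471 for male pools 1 and 2. The limit that 3 reads set was 0.815 and 1.48 normalized CPM for females and 0.358 and 1.16 for males. Limits and intervals on single pools are Poisson ones and cover the counting error of reads only. No molecular identifiers were used in counting, so repeated reads of 1 molecule were not removed, and the limits and intervals can be too narrow.

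**Figure D1:**
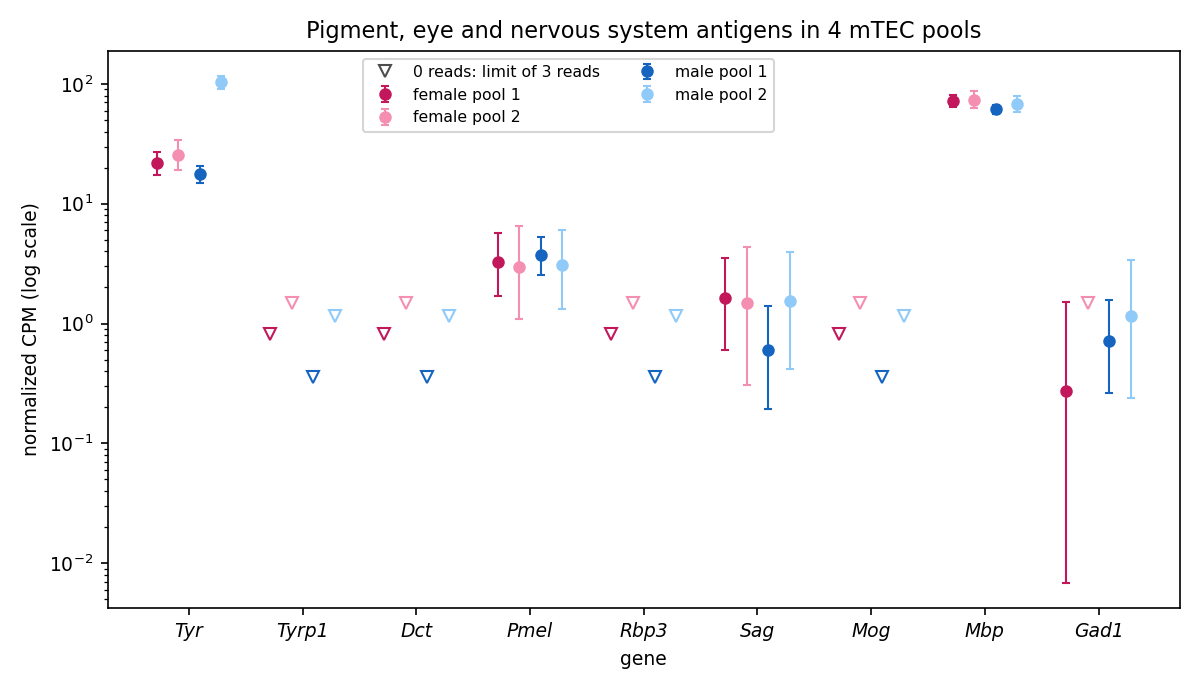
Normalized CPM (log scale) of the 9 genes in female pools 1 and 2 and male pools 1 and 2. Points are values with exact Poisson 95% intervals, and open triangles mark pools with 0 reads, drawn at the limit of 3 reads. Tyr is high in male pool 2, Mbp lies between 61.4 and 73.7 in all pools, and Tyrp1, Dct, Rbp3 and Mog have triangles only.

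Of the pigment genes, Tyr, which encodes tyrosinase, the rate-limiting enzyme of melanin synthesis, had 80 and 52 reads in female pools 1 and 2 and 148 and 268 reads in male pools 1 and 2. On the normalized scale these were 21.7, 25.7, 17.7 and 103 normalized CPM. Male pool 2 thus stood 4.01-fold above the next highest pool, and male pool 1 lay below both female pools, so the sexes overlapped. Females averaged 23.7 ± 2.82 normalized CPM and males 60.4 ± 60.5 (SD over 2 pools). The log2 fold change of male over female was 1.33 (standard error 0.75), and edgeR's quasi-likelihood test gave an adjusted p of 1.

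The direction of this difference depended on which male pool was kept, whereas the paper's quantitative RT-PCR gave higher Tyr (tyrosinase) mRNA in male mTECs. Without male pool 2 the log2 fold change of Tyr was -0.40 (standard error 0.38). Without male pool 1 it was 2.13 (standard error 0.36), and edgeR's quasi-likelihood test then gave Tyr an adjusted p of 3.27e-05. That fit takes the lone male pool to vary as the female pools do, and it called 5.81% of all genes tested, 5.38% as higher in males. Over 11 alternatives the adjusted p of Tyr in edgeR or DESeq2 ran from 3.27e-05 to 1. Without TMM scaling Tyr had 22.8, 26.3, 20.8 and 80.1 CPM of all reads on genes in the same order of pools, so male pool 2 was also highest on that scale.

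Other measures of male pool 2 are given beside this value. Of the 10865 genes tested, 124 (1.14%) were at least 3-fold higher in male pool 2 than in every other pool, as Tyr was. Male pool 2 was the highest pool, by any margin, for 32.7% of the genes tested. The summed normalized CPM of the dendritic cell and macrophage list was 4679 in male pool 2, against 2328 and 3556 in the female pools and 1838 in male pool 1, with all 10 genes of the list read in every pool. Most of that excess was in Lyz2, the lysozyme gene, at 3327 normalized CPM in male pool 2, and the other 9 genes summed to 1352 there against 998 to 1167 in the other pools. The paper reported higher Aire mRNA in mTECs of males by quantitative RT-PCR. In these counts Aire had 19.3 and 31.7 normalized CPM in females and 19.7 and 28.9 in males. The log2 fold change of Aire was -0.07 (standard error 0.39). Tyr thus had 1.13, 0.812, 0.897 and 3.57 reads per Aire read in female pools 1 and 2 and male pools 1 and 2. The part of these differences in the Tyr value was not tested.

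Tyrp1, which encodes the tyrosinase-related protein that stabilizes tyrosinase and acts late in eumelanin synthesis, had 0 reads in all 4 pools, and so did Dct, which encodes dopachrome tautomerase. For Tyrp1 (TRP-1), the paper's quantitative RT-PCR did give mRNA in sorted mTECs, higher in males. Over the 4 pools together, 3 reads correspond to 0.18 normalized CPM. To compare genes, reads were divided by the length of a gene's merged exons in GENCODE vM1, which was 5.40 kb for Tyr, 2.83 kb for Tyrp1 and 2.48 kb for Dct. Summed over the pools, Tyr had 101 reads per kb, at least 95.7-fold higher than Tyrp1 and at least 84.0-fold higher than Dct when these are set at 3 reads over the 4 pools. Male pool 2 held 268 of the 548 Tyr reads, and without it Tyr had 51.9 reads per kb, at least 48.9-fold higher than Tyrp1 and at least 42.9-fold higher than Dct. Of the stretches of 50 bases (the read length) in their exons, 97.5% for Tyr and 100% for Dct occur once in NCBIM37, and Tyrp1 lies between Sag (91.6%) and Tyr in this share.

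Pmel, which encodes the protein that forms the fibrils of the melanosome, was low and even across pools. It had 12 and 6 reads in females and 31 and 8 in males, which is 3.26, 2.97, 3.70 and 3.08 normalized CPM. The sexes overlapped and the highest pool was 1.25-fold above the lowest. Quantitative RT-PCR in the paper gave similar Pmel (Silver) mRNA in male and female mTECs. The log2 fold change was 0.13 (standard error 0.56), and it was -0.028 (standard error 0.89) without male pool 1. Pmel did not show the excess of Tyr in male pool 2, where there were 33.5 reads of Tyr per read of Pmel against 4.77 to 8.67 in the other pools.

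Both retinal genes were at or near the detection limit. Rbp3, which encodes the retinoid-binding protein between photoreceptors and pigment epithelium (IRBP), had 0 reads in all pools, although it has 5.28 kb of exons and 100% of its 50-base stretches occur once in the genome. Sag, which encodes the rod arrestin known as S-antigen, had 6 and 3 reads in females and 5 and 4 in males. These were 1.63, 1.48, 0.597 and 1.54 normalized CPM. Female pool 2 alone was not above 3 reads, and the exact Poisson 95% intervals of all pools overlapped. Sag was under the filter on low counts and had no test, and the ratio of male to female reads per effective library size was 0.52 with an exact 95% interval of 0.183 to 1.48, which compares these libraries only.

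The myelin genes stood at opposite ends. Mog, which encodes myelin oligodendrocyte glycoprotein, the antigen that the study used to induce encephalitis, had 0 reads in every pool. Mog is also the shortest of the 9 gene models (1.70 kb), so its limit per kb was the highest of the members, 0.479 and 0.873 normalized CPM per kb for females and 0.211 and 0.679 for males. All of its 50-base stretches (100%) occur once in the genome. A sex difference in Mog below these limits was not detectable at this depth. By quantitative RT-PCR the paper reported Mog mRNA in sorted mTECs, higher in males than in females and lower in Aire-deficient mice.

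Mbp encodes myelin basic protein and spans chromosome 18 from 82644538 to 82755029 (plus strand). It had the most reads of the 9 genes, 266 and 149 in females and 514 and 177 in males. These were 72.3, 73.7, 61.4 and 68.2 normalized CPM, so both male pools lay below both female pools, and the highest pool was 1.20-fold above the lowest. Females averaged 73.0 ± 1.01 normalized CPM and males 64.8 ± 4.77 (SD over 2 pools). The log2 fold change was -0.17 (standard error 0.30), and edgeR's quasi-likelihood test gave an adjusted p of 1. Of the 3 genes tested, Mbp alone had sexes that did not overlap, and of all genes tested 11.7% had both male pools below both female pools. Per kb, Mbp exceeded Mog at least 74.6-fold, with Mog set at 3 reads over the 4 pools.

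The Mbp locus also makes the longer golli transcripts, which are known in T cells and other blood cells, and counts per gene do not separate these from the transcripts of myelin. GENCODE vM1 lists 16 transcripts over its 8.40 kb of exons. Genes of blood cells were read in the pools although the sort was for CD45-negative cells, and Ptprc, which encodes CD45, had 1030 and 363 reads in females and 2546 and 569 in males. The B cell list (8 of 8 genes read in every pool, led by Cd79a and Cd79b) summed to 4619 and 3028 normalized CPM for females and 3812 and 2539 for males. The thymocyte list (10 of 10 genes read in 3 pools, and 9 in male pool 2, led by Cd8a and Cd3g) summed to 302 and 272 for females and to 890 and 391 for males. All 8 thymocyte genes tested were higher in males, as were 53.2% of all genes tested, with a median log2 fold change of 1.38. By edgeR's quasi-likelihood test 2 of the 8 passed an unadjusted p of 0.05 and 0 were called. Male pool 1 carried this, since without it 5 of the 8 were higher in males and the median was 0.48. Without male pool 2 all 8 were higher in males. Their part in the level of Mbp was not tested.

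Gad1, which encodes a form of glutamate decarboxylase, the enzyme that makes GABA, had 1 and 0 reads in females and 6 and 3 in males. These were 0.272, 0, 0.717 and 1.16 normalized CPM. Male pool 1 alone was above 3 reads, and it was the most deeply sequenced pool. Both male values lay above both female values. That held for 9.47% of the genes tested, a set without Gad1, so the share is no background for counts this low. The ratio of male to female reads per effective library size was 4.68, but with an exact 95% interval of 0.648 to 205. Gad1 was under the filter on low counts and had no test. The paper's quantitative RT-PCR gave similar Gad1 mRNA in male and female mTECs.

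Between the sexes, edgeR's quasi-likelihood test called 0 of the 3 tested genes (Tyr, Pmel and Mbp) at an adjusted p under 0.05, and 0 had an unadjusted p under 0.05. Over all 10865 genes tested 0% were called, and 0.442% passed an unadjusted p of 0.05. By DESeq2 there were 0 calls among the 3 as well. Unlike this, the paper's comparison, with fold changes from edgeR, reported genes induced in males at a false discovery rate under 0.05. Some of those lay on the Y chromosome. The reach of the main test used here was small with 2 pools per sex. Ddx3y, a Y chromosome gene with 0 reads in females, had a log2 fold change of 10.5. Its adjusted p by edgeR's quasi-likelihood test was 0.186, and Xist, at a log2 fold change of -4.57, was not called either. A gene without a call is thus not shown to be equal in the sexes. The median log2 fold change of the 3 tested members was 0.13, beside 0.03 over all genes tested.

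**Figure D2:**
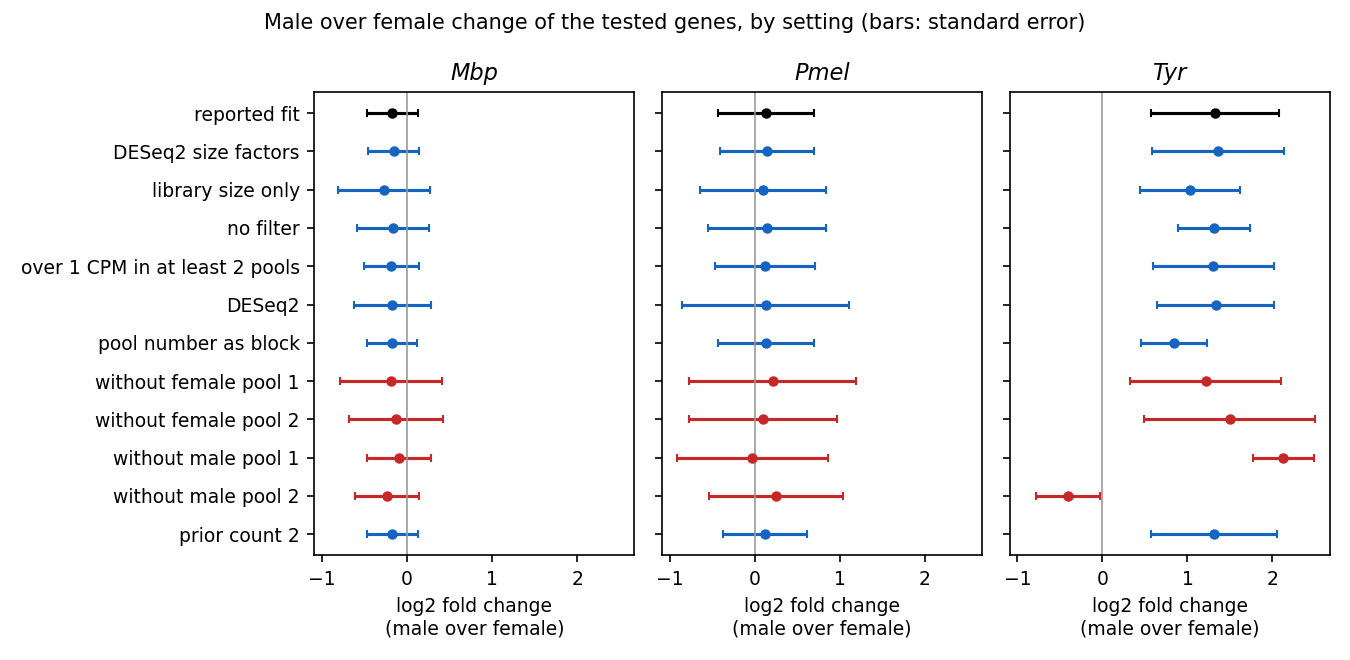
Log2 fold change of male over female for Mbp, Pmel and Tyr (x axis) in the reported fit (black), with another normalization, filter, test, block or prior count (blue) and with a pool left out (red), with bars of 1 standard error. Mbp lies between -0.27 and -0.10 in every alternative, whereas Tyr is at 2.13 when male pool 1 is left out and at -0.40 when male pool 2 is.

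Ordered by mean level per kb over the 4 pools, the 5 detected members were Mbp, Tyr, Pmel, Sag and Gad1. Merged exons join all transcripts of a gene model, 16 for Mbp, 8 each for Sag and Gad1 and 2 each for Tyr and Pmel. They can be longer than the transcript that is made, so levels per kb can be too low, and unequally so between genes. Mbp had 8.20 ± 0.658 normalized CPM per kb (SD over 4 pools) and Tyr 7.79 ± 7.57, and Tyr lay above Mbp in male pool 2 and below it in the other pools, so this pair did not differ beyond its spread. Pmel followed at 1.53 ± 0.152, below the lowest pool of Tyr (3.27). Sag had 0.148 ± 0.0541 and Gad1 0.0702 ± 0.0665, and their pools overlapped. Of the 21048 rows with a gene model length, 79.4% had a lower mean per kb than Mbp, 78.7% than Tyr, 58.1% than Pmel, 35.9% than Sag and 30.6% than Gad1. Of all 23366 gene rows, 5500 (23.5%) had 0 reads in all pools, as had 4 of the 9 members.

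**Figure D3:**
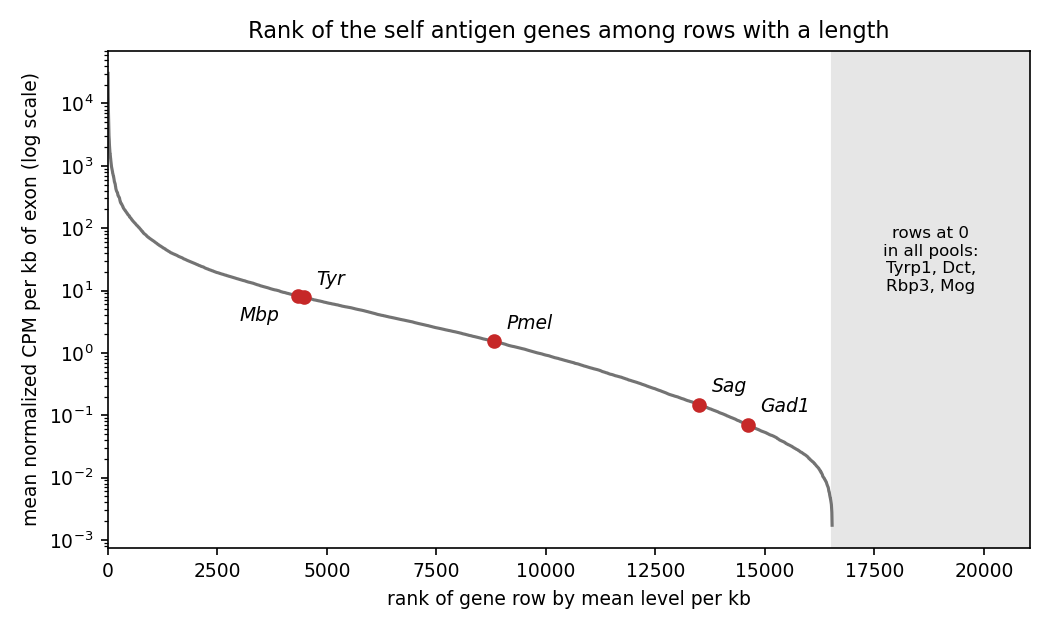
Mean normalized CPM per kb of exon over the 4 pools (log scale) of every row with a length, against its rank. Red points mark the 5 detected genes, from Mbp and Tyr near 8 to Gad1 at 0.0702 normalized CPM per kb, and the grey area holds the rows with 0 reads, Tyrp1, Dct, Rbp3 and Mog among them.

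The profile over the 4 pools was compared with that of all genes tested, as log2 normalized CPM centred on each gene's mean. The nearest profiles to Tyr were those of Polr2k (50.8, 58.4, 42.3 and 240 normalized CPM in female pools 1 and 2 and male pools 1 and 2), 2810454H06Rik and the chemokine receptor gene Cxcr2, at Euclidean distances of 0.05 to 0.18. Clasp1, Pbrm1 and Qrsl1 were nearest to Pmel (0.01 to 0.03), and Tsc22d4, Gas2l3 and Tspyl2 to Mbp (0.04 to 0.05). Likeness over 4 pools is a description only.

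The members were then set beside 90 other genes, in 4 lists named for their tissues (the plot of list genes per kb). Of these, 17 passed the filter on low counts. Between the sexes edgeR's quasi-likelihood test called 0 of them, beside 0% of all genes, and at an unadjusted p under 0.05 there were 0. By DESeq2 there were 0 calls in these lists.

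Of 20 genes of the melanocyte list, 18 had a read, and 10 were tested, 5 higher and 5 lower in males with a median log2 fold change of 0.01 and 0 calls. The most abundant were Bloc1s1, Ap3b1, Kit, Myo5a, Hps1 and Rab27a, which act in vesicle traffic or, for Kit, as a growth factor receptor in several cell types besides melanocytes. Kit had 64.4 and 43.1 normalized CPM in females and 45.4 and 27.7 in males (log2 fold change -0.55, standard error 0.38). Mitf, the gene of the M-box factor and named for that role, had 55 reads over the 4 pools, and its log2 fold change was -0.02 (standard error 0.66). The rest of the list, given in full after its values were seen, spread from undetected to abundant. Over the 4 pools there were 0 reads of Oca2 and Gpr143, 1 of Mlana, 2 of Sox10, 4 each of Pax3 and Slc45a2, and 10 each of Mc1r and Trpm1. There were 24 reads of Ednrb, 27 of Slc24a5, 61 of Rab38, 160 of Atp7a and 226 of Gpnmb.

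The retina and lens list held the largest share of genes at 0 among the 4 lists, 9 of 25 (36.0%). Cryaa, Rom1, Cryab, Gnat1, Lrat and Rlbp1 were the most abundant. Cryaa, a lens crystallin gene, had 4.35, 4.45, 4.30 and 6.16 normalized CPM in female pools 1 and 2 and male pools 1 and 2. Cryab, a crystallin gene also expressed outside the lens, had 1.63 and 2.97 in females and 2.27 and 9.63 in males. Its log2 fold change was 1.32 (standard error 0.87), and male pool 2 was again highest, as for 32.7% of all genes tested. Of the 3 genes tested, 2 were higher and 1 lower in males, and the median log2 fold change was 0.22.

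In the myelin list 18 of 20 genes had a read and 2 were tested, with 1 higher, 1 lower and a median log2 fold change of -0.14. Cnp, which encodes a phosphodiesterase of myelin that blood cells also express, had 295 and 263 normalized CPM in females and 251 and 161 in males (log2 fold change -0.44, standard error 0.40). The next were Pmp22, Mag, Mal, Olig1 and Myrf, all between 0.44 and 2.31 normalized CPM on average.

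In the neuron list 24 of 25 genes had a read, and 2 were tested, Chrna1 and Syt1. Both were higher in males, with a median log2 fold change of 0.82, which rests in part on a gene of muscle. Chrna1 encodes the alpha subunit of the muscle acetylcholine receptor, the target of antibodies in myasthenia gravis. It had 92 and 99 reads in females and 183 and 388 in males, and its normalized CPM was no more than 49.0 in females, against 21.9 and 149 in males (log2 fold change 1.21, standard error 0.83), highest in male pool 2 and lowest in male pool 1 as Tyr was. Syt1 had 5.71 and 5.44 in females and 6.57 and 8.86 in males. Gad2, the relative of Gad1, had 9 and 1 reads in females and 11 and 10 in males, while Stmn2, Elavl4 and Ptprn had between 9 and 18 reads in all.

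**Figure D4:**
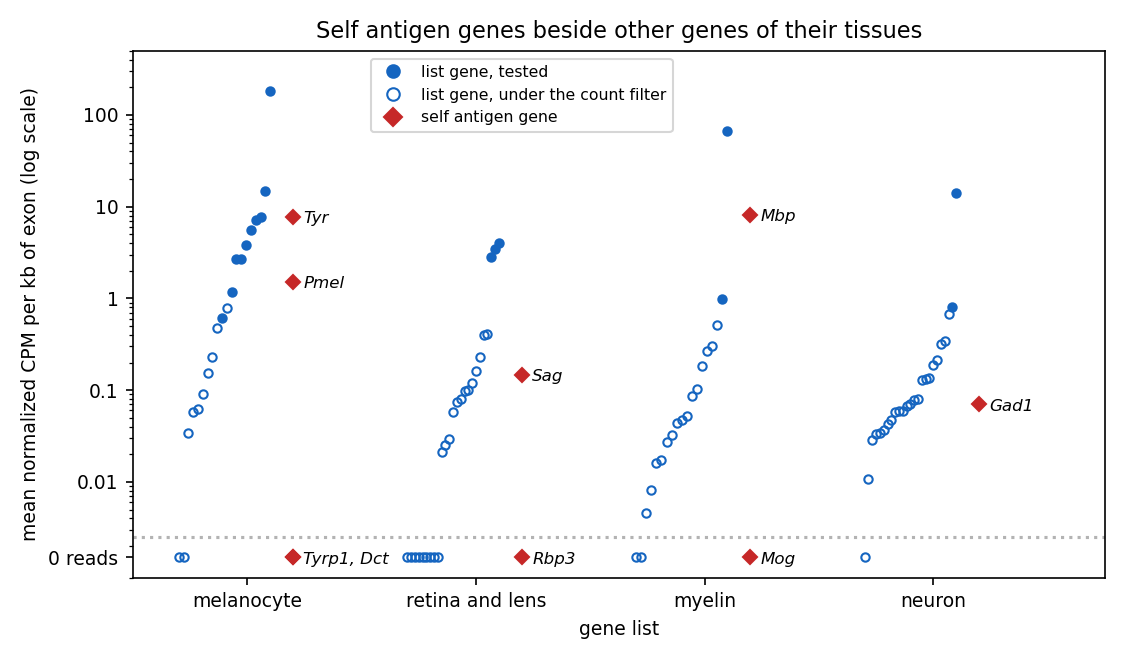
Mean normalized CPM per kb of exon over the 4 pools (log scale) of 89 list genes with a length, by list, with the 9 self antigen genes as red diamonds. Filled points passed the filter on low counts and open points did not, and genes with 0 reads are drawn on the bottom line. Tyr and Mbp lie among the high genes of their lists, while Tyrp1, Dct, Rbp3 and Mog lie on the bottom line.

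The labels were checked on the same counts. Ddx3y, a Y chromosome gene, had 0 reads in both female pools and 445 and 89 in the male ones. Xist, transcribed from the inactive X chromosome, had 349 and 111 reads in females and 7 and 18 in males. On the normalized scale these were 94.9 and 54.9 normalized CPM in females and 0.836 and 6.93 in males. Male pool 2 thus held more Xist than male pool 1, and the source of these reads was not tested. All 9 epithelial genes were read in every pool and summed to 382 to 654 normalized CPM, led by Spint2 and Krt8, which is less than the B cell or the dendritic cell and macrophage sum (led by Lyz2 and Flt3) in every pool. Of 9 genes listed for mTECs, 8 were read in every pool, led by H2-Aa and Ctss, which antigen-presenting blood cells also express, and Ccl21a had 0 reads in every pool. The list sum was 13373 to 19928 normalized CPM, and H2-Aa alone had 12493 to 18212, so this sum mostly follows H2-Aa. The fibroblast and endothelium list, led by Dcn and Pecam1, summed to 37.8 to 95.9 normalized CPM.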

How the data were processed

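Per the labels and the paper's methods, polyA RNA of sorted mTECs was made into libraries with the SMARTer Ultra Low kit, and the authors filtered the 50-base reads with Trimmomatic, aligned them to mm9 with TopHat2 and counted them per gene with HTSeq. The authors deposited raw counts for 23366 gene rows. Versions, annotation and strand setting are not given in the sources used here. Unassigned reads, in 5 further rows, made up 66.9% to 70.2% of a pool's sum and were left out. All 4 pools differed by more than sampling noise (lowest chi-square per degree of freedom 10.1).

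Males and females were compared with edgeR 4.0.16 in R 4.3.3 (TMM, filterByExpr with a minimum count of 10, quasi-likelihood test, two-sided, prior count 0.125, Benjamini-Hochberg adjustment over all genes tested, sex as the only term), and with DESeq2 1.42.0 as an alternative. The script was tested on simulated data. A standard error is the size of the log2 change over the root of its F value. The p-values measure the spread between pools of mice, which may be partly technical. Exact intervals used scipy 1.17.1. Lengths and positions are from GENCODE vM1 on NCBIM37, which need not be the authors' annotation, and 21048 rows (90.1%) matched by symbol. The members and gene lists were chosen with earlier results of these data known. Named were all members, the 6 most abundant genes of each pathway list and any called, the 2 most abundant of each marker list, Aire, Ddx3y, Xist and the 3 nearest profiles of each tested member. Outside this rule, Mitf, the remaining melanocyte genes, Ccl21a and Ptprc were named after their values were seen, and the values without male pool 2, without Lyz2 and for the thymocyte list were added then too. Alternatives were DESeq2 size factors, library size only, no filter, over 1 CPM in at least 2 pools, DESeq2, pool number as a block, each pool left out, a prior count of 2, thinning to the smallest total and more than 3 reads.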

Additional observations from a re-analysis of the deposited data

How the results depend on the processing

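By edgeR's quasi-likelihood test, the number of the 9 genes called was 0 as reported and ran from 0 to 1 with a pool left out, Tyr being called without male replicate 1 (log2 fold change 2.13), and so did the count over the 4 tissue lists, from 0 to 1, with Chrna1 called without male replicate 1. Tyr reversed to -0.40 without male replicate 2 and Pmel, from -0.028 to 0.25 with a pool left out, to -0.028 without male replicate 1. Mbp kept its direction and its lack of a call under all 11 alternatives, from -0.27 to -0.10. Over all genes edgeR called 0 as reported (48 at an unadjusted p under 0.05), 5 when scaled by library size only, 26 unfiltered and 17 with pool number as a replicate block, and DESeq2 called 3. Leaving out a pool gave from 0 to 631, where 631 lacked male pool 1 and 52 lacked male pool 2. The cause was not tested. The replicate block changed no call among the members or the tissue lists, and it put Tyr at 0.84. Differences between pools 2 and 1 correlated at 0.52 over genes between the sexes, but nothing in the labels ties the 2 pairs together beyond their number.

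The number of members with a read was 5 with any pool left out, and 5 with more than 3 reads required in some pool. Thinned to the smallest total, the expected number per pool was 4.56 in female pool 1 and 4.66 and 4.90 in the male pools, against 5 in each at full depth, so Gad1 and Sag in single pools are what depth limits.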
